A study of Mus musculus with 8 samples.

Results

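The mitochondrial carriers of the SLC25 family, together with UCP2, were followed in the cardiac ventricles of mice that carried a Lewis lung carcinoma. The members were every protein-coding gene of the deposited count table whose symbol is Slc25a followed by a number, plus Ucp2, which gave 48 of the 43346 genes of the table. The data came from 8 male C57BL/6 mice, of which 4 received 1000000 LLC1 cells, a mouse Lewis lung carcinoma line, under the skin of the flank at 7 weeks of age, and 4 received PBS vehicle. Ventricular tissue was taken 14 days after the injection, and polyadenylated RNA was sequenced. LLC1 is a single transplanted tumor line, and no genetic change is given for either group of mice. The labels name the mice by a code, and values below are given in the order LLC1 1-2, 1-3, 1-5 and 2-2, then PBS 1-1, 1-3, 2-1 and 2-5.

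SLC25 proteins sit mainly in the inner mitochondrial membrane, where each moves a set of small molecules between matrix and cytosol, commonly as an exchange of one substrate for another. In the heart they export ATP against ADP, import phosphate and acylcarnitines, and carry the partners of the malate-aspartate shuttle, which brings reducing equivalents of cytosolic NADH into the matrix. UCP2 belongs to the same protein family and is known as an uncoupling protein that also moves small carbon compounds out of the matrix. The carriers are encoded in the nucleus, made in the cytosol and inserted into the inner membrane by the TIM22 complex.

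Between LLC1 and PBS ventricles, 5 carriers passed the test. Slc25a34, Slc25a28, Slc25a4 and Slc25a33 rose and Slc25a45 fell, by log2 fold changes of 0.50, 0.49, 0.31, 0.35 and -0.61. A gene was called where its false discovery rate (FDR) over all genes tested was under 0.05 by edgeR's quasi-likelihood test, with 4 mice per group. Of the 48 members, 41 had enough reads to be tested, and 5 of them (12.2%) were called, against 8.73% of the 16111 genes tested. The 4 that rose were 9.76% of the members tested, where 4.12% of all genes rose. The 1 that fell stood beside a background of 4.61%. Groups did not overlap for 7 of 41 members (17.1%), a share near the 17.2% of all genes. The median log2 fold change was 0.04 over the members and -0.01 over all genes. Most differences were small. Of the 36 members tested and not called, 33 had a 95% interval that lay within a 1.5-fold change in either direction. The 3 whose interval reached further were Slc25a25, Slc25a18 and Slc25a53. Beside this fit, 19 others were made, 11 with another scaling, filter, model or offset and 8 with 1 mouse left out. The count of carriers called was 3 without any one of the LLC1 mice and 2 without PBS 1-3.

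**Figure D1:**
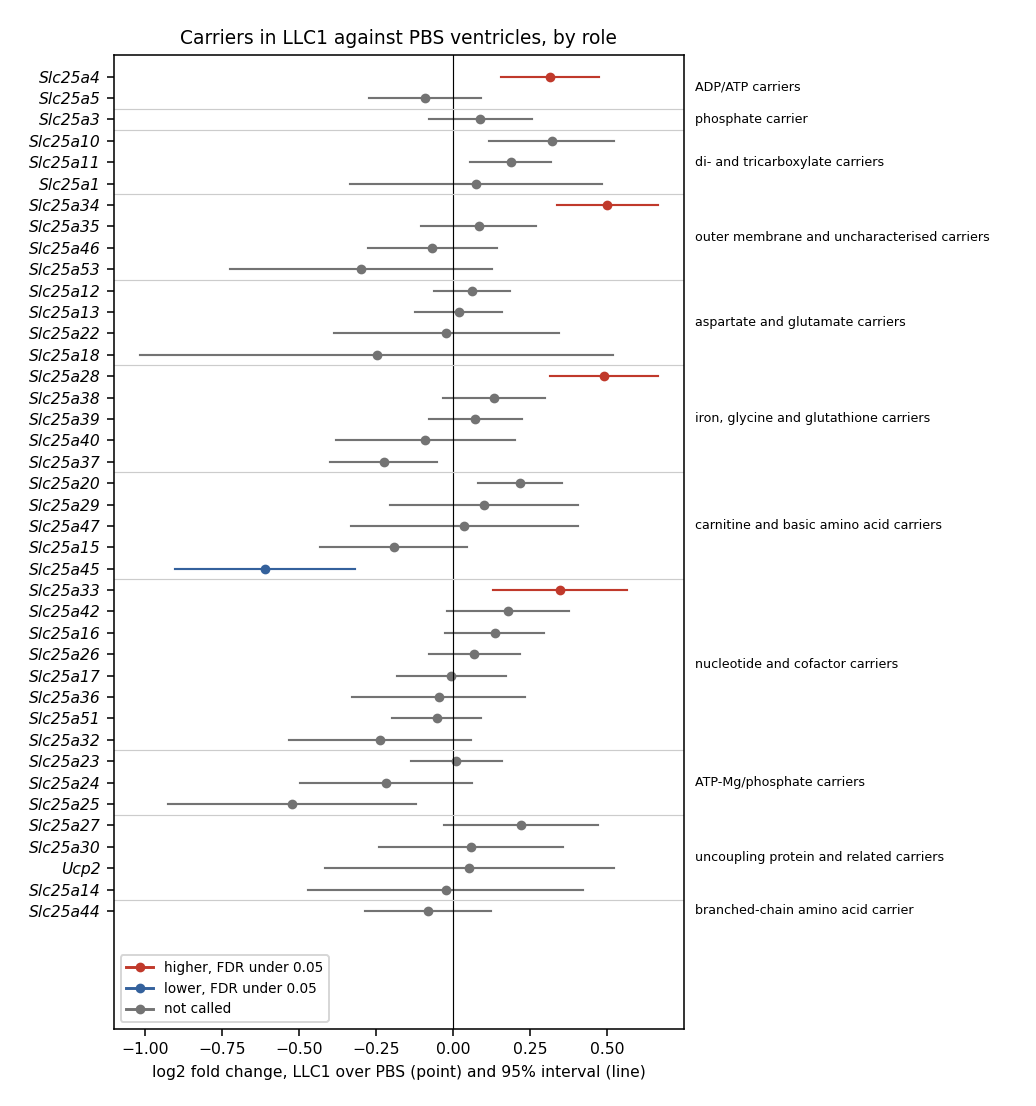
The log2 fold change of LLC1 over PBS (points, x axis) with its 95% interval (lines) is drawn for 40 of the carriers tested, grouped by role, with n = 4 mice per group. Red marks the 4 carriers that rose, blue the 1 that fell, both at an FDR under 0.05, and grey those not called.

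The libraries held 12480706 to 16192158 counts in the PBS mice and 15342214 to 19747596 in the LLC1 mice, and levels are given as counts scaled to 1000000 per library after TMM normalization (CPM), so that 1 CPM stood for 11.7 to 19.9 counts. The first principal component separated the groups (31.5% of the variance) and the second set PBS 1-1 apart from the other mice (25.2%). Without PBS 1-1, 5 carriers were again called, 4 of them shared, with Slc25a20 in place of Slc25a33. The tissue carried the RNA of heart muscle: the summed level of 6 cardiomyocyte markers (Myh6, Tnnt2, Tnni3, Actc1, Myl2 and Ryr2) was 87357 to 93852 CPM in the LLC1 mice and 78434 to 80626 CPM in the PBS mice, without overlap. Of these 6, Myh6 alone was called (higher). Log2 fold changes ran from -0.17 to 0.24 over the 6 and were above 0 for 4 of them. The brown adipocyte sum was 27.8 to 33.7 against 25.0 to 29.0 CPM and overlapped, nearly all of it Cidea, which was not called (log2 fold change 0.24, FDR 0.095), while Ucp1 was at 0 counts in every mouse. Cd3e of T cells was at 0 to 4 counts. The endothelial sum (693 to 809 against 781 to 1046 CPM), the fibroblast sum (607 to 681 against 639 to 738 CPM) and the leukocyte sum (180 to 214 against 205 to 304 CPM) overlapped, with 1 of 5, 2 of 5 and 2 of 5 markers tested called lower. The neutrophil sum was 3.32 to 6.58 against 1.24 to 3.09 CPM with 2 of 3 markers tested called higher, the dividing-cell sum was 2.30 to 4.81 against 14.2 to 44.7 CPM with 4 of 4 called lower, and neither overlapped. The erythroid sum was 1429 to 5180 against 1556 to 3097 CPM, with 0 of 5 called by edgeR and 0 of 5 at an unadjusted p under 0.05. In such bulk tissue a lower share of a cell type and less RNA per cell of that type cannot be told apart. The part of the cardiomyocyte-marker difference in the carriers' results was not tested, and values relative to it are given beside the carriers that were called.

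Carrier levels spanned several orders of magnitude. On the scale of mean CPM per kilobase of gene length over the 8 mice, Slc25a4 stood at 2553, and the next were Slc25a3 at 265, Slc25a11 at 257, Slc25a5 at 161 and Slc25a34 at 120.2. Slc25a13 at 53.2, Slc25a39 at 46.0, Slc25a20 at 40.9, Slc25a12 at 38.9 and Slc25a42 at 18.1 completed the 10 highest. Neighbors in this order were often within each other's spread over mice: Slc25a3 and Slc25a11 overlapped, as did Slc25a20 and Slc25a12. Slc25a53 was the lowest of those tested, at 0.247 CPM per kilobase. The 7 members below the read filter were Slc25a31 (2 to 20 counts per library), Slc25a43 (1 to 8), Slc25a2 (0 to 6), Slc25a21 (0 to 3), Slc25a41 (0 to 1), Slc25a48 (0 to 1) and Slc25a54 (0 in all 8 libraries). A count of 0 in a library allows up to 3 counts, which covers counting error only.

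**Figure D2:**
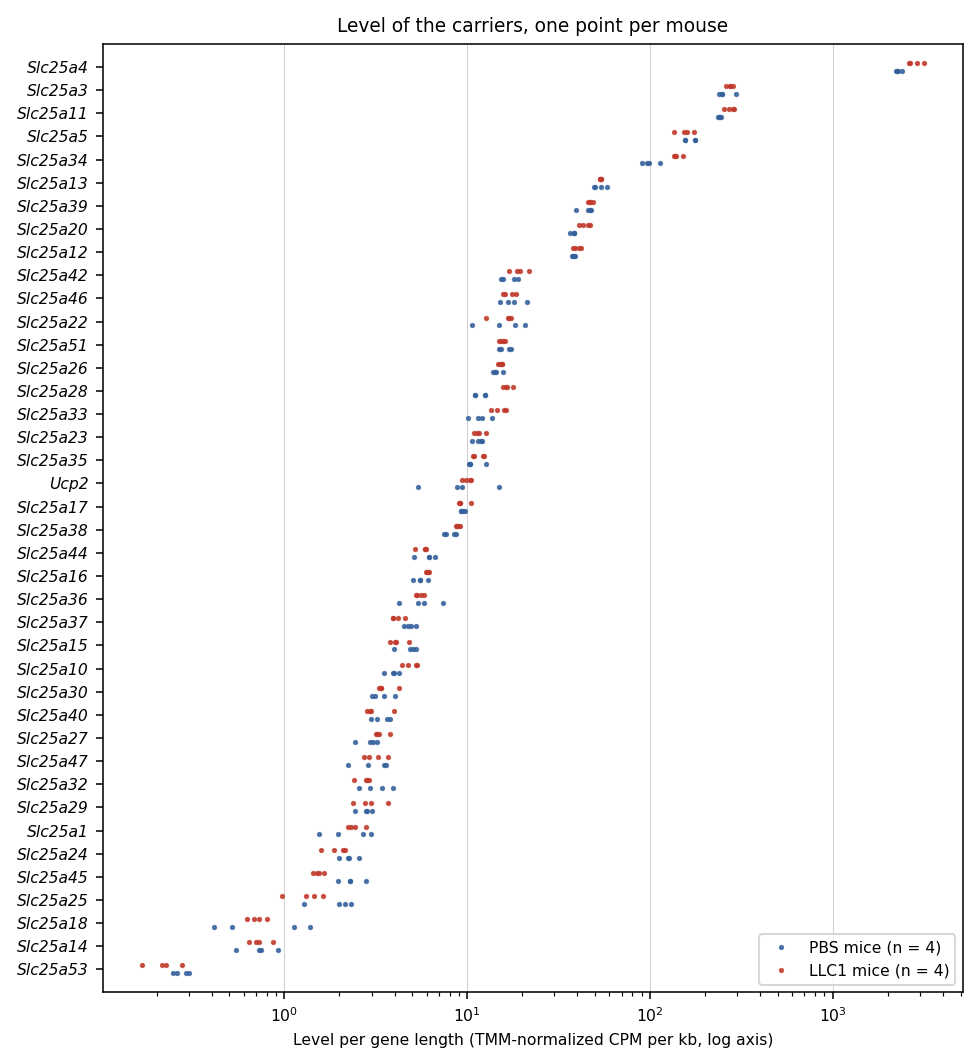
Each point is one mouse, placed by the carrier's TMM-normalized CPM per kilobase of gene length on a log axis, for 40 of the carriers tested, in order of mean level. Slc25a4 stands alone at the top with a mean of 2553 CPM per kilobase, and the groups lie close together for most carriers.

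Summed over all 48 members, the level was 4093 ± 276 CPM per kilobase in the LLC1 mice and 3438 ± 65.5 in the PBS mice (SD, n = 4 each), without overlap. Leaving out Slc25a4, the sum was 1263 ± 29.9 against 1162 ± 19.1, again without overlap. The members' counts made up 1.09 ± 0.0427% of the library in LLC1 and 0.964 ± 0.0491% in PBS mice. Relative to the summed cardiomyocyte markers in the same mouse, the family sum in CPM was 123 ± 5.85 per 1000 marker CPM in LLC1 and 119 ± 0.696 in PBS mice, a ratio of 1.03. The lowest LLC1 mouse, at 119.90, lay just above the highest PBS mouse, at 119.82, and LLC1 1-2 was the highest at 132. Without LLC1 1-2 the ratio was 1.01. Slc25a4 took 69.1 ± 1.51% of the family's CPM per kilobase in LLC1 mice and 66.2 ± 0.913% in PBS mice, while Slc25a5 took 3.80 ± 0.316% and 4.82 ± 0.352%. Neither share overlapped between groups.

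The ADP/ATP carriers exchange matrix ATP for cytosolic ADP. Slc25a4 (chr8:46206797-46211284, mm10, minus strand), the isoform known for heart and skeletal muscle, was measured at 7432, 6252, 6812 and 6137 CPM in LLC1 mice and at 5296, 5334, 5198 and 5593 CPM in PBS mice. All LLC1 mice lay above all PBS mice (log2 fold change 0.31, SE 0.07, FDR 0.0218). The call was lost without LLC1 1-2, LLC1 1-5, PBS 1-3 or PBS 2-1 (FDR 0.0546 to 0.0771) and with scaling to total counts (FDR 0.0697). Per 1000 cardiomyocyte-marker CPM, Slc25a4 was at 70.2 to 82.2 in LLC1 and 65.7 to 69.6 in PBS mice, a log2 difference of 0.13 in place of 0.31. Slc25a5 (chrX:36795651-36798807, plus strand), the broadly expressed isoform, was at 261, 254, 288 and 221 CPM in LLC1 mice and at 290.0, 289, 256 and 257 CPM in PBS mice, and the groups overlapped (log2 fold change -0.09, SE 0.08, FDR 0.529). The third isoform, Slc25a31, known from testis, was below the read filter.

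The ratio of Slc25a4 to Slc25a5 within a mouse does not depend on library scaling. In counts per base of gene length it was 19.9, 17.2, 16.5 and 19.4 in LLC1 mice and 12.8, 12.9, 14.2 and 15.2 in PBS mice. Every LLC1 mouse had a higher ratio than every PBS mouse. The exact two-sided permutation test gave p = 0.0286, the smallest value that 4 mice against 4 allow, and 0.114 after Benjamini-Hochberg adjustment over the 8 pairs compared, which misses the threshold. The coding sequences of both isoforms are 894 bases long and 77.4% identical, and their longest identical run is 20 bases, far below the 150-base reads. A stretch of each coding sequence (bases 272 to 391 in both) is shown because such differences let reads of the isoforms be told apart. Capitals mark the 25 bases of 120 that differ.
Slc25a4: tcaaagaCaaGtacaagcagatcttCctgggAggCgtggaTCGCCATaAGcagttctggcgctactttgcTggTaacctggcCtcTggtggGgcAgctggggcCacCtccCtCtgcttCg
Slc25a5: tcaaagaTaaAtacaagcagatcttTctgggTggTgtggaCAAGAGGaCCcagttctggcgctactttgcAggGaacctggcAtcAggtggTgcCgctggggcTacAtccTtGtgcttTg
Slc25a5 also shares stretches of at least 150 bases at 97% identity or more with transcripts of 2 processed pseudogenes, Gm5529 and Gm5560, which reached at most 253 and 138 counts, so a part of its reads is uncertain.

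Slc25a3, the carrier that imports the phosphate for ATP synthesis, was at 1575, 1515, 1516 and 1453 CPM in LLC1 mice and at 1642, 1375, 1366 and 1316 CPM in PBS mice. The highest value of all was that of PBS 1-1, and the groups overlapped (log2 fold change 0.09, 95% interval -0.08 to 0.26, FDR 0.504). The ATP-Mg/phosphate carriers Slc25a23, Slc25a24 and Slc25a25 set the matrix adenine nucleotide pool under control of calcium, and none of the 3 tested was called. Slc25a23 and Slc25a24 had log2 fold changes of 0.01 and -0.22. Slc25a25 had the largest difference among them: 7.61, 12.7, 10.3 and 11.4 CPM in LLC1 mice against 15.6, 16.8, 10.1 and 18.1 CPM in PBS mice (log2 fold change -0.52, SE 0.19, FDR 0.102). PBS 2-1 lay within the LLC1 range. Slc25a25 was called lower in the fit without that mouse and in no other setting.

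Slc25a34 (chr4:141618824-141623821, minus strand), a carrier whose substrate is not well established, had the lowest FDR of the family. It was measured at 359, 372, 366 and 407 CPM in LLC1 mice and at 242, 258, 263 and 301 CPM in PBS mice. The lowest LLC1 mouse lay above the highest PBS mouse (log2 fold change 0.50, SE 0.08, FDR 0.00331). It was called in all 19 other settings, each mouse left out included. Per 1000 cardiomyocyte-marker CPM it was at 3.90 to 4.65 in LLC1 mice and 3.00 to 3.75 in PBS mice, a ratio of 1.25 without overlap. Of the other outer membrane and poorly characterised carriers tested, Slc25a35 (-0.10 to 0.27), Slc25a46, an outer membrane protein of mitochondrial dynamics (-0.28 to 0.14), and Slc25a53 (-0.73 to 0.13) had 95% intervals of the log2 fold change that included 0. The exons of Slc25a35 overlap those of Rangrf on the other strand over 31.3% of their length, so its reads are uncertain if strand was not used in counting.

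**Figure D3:**
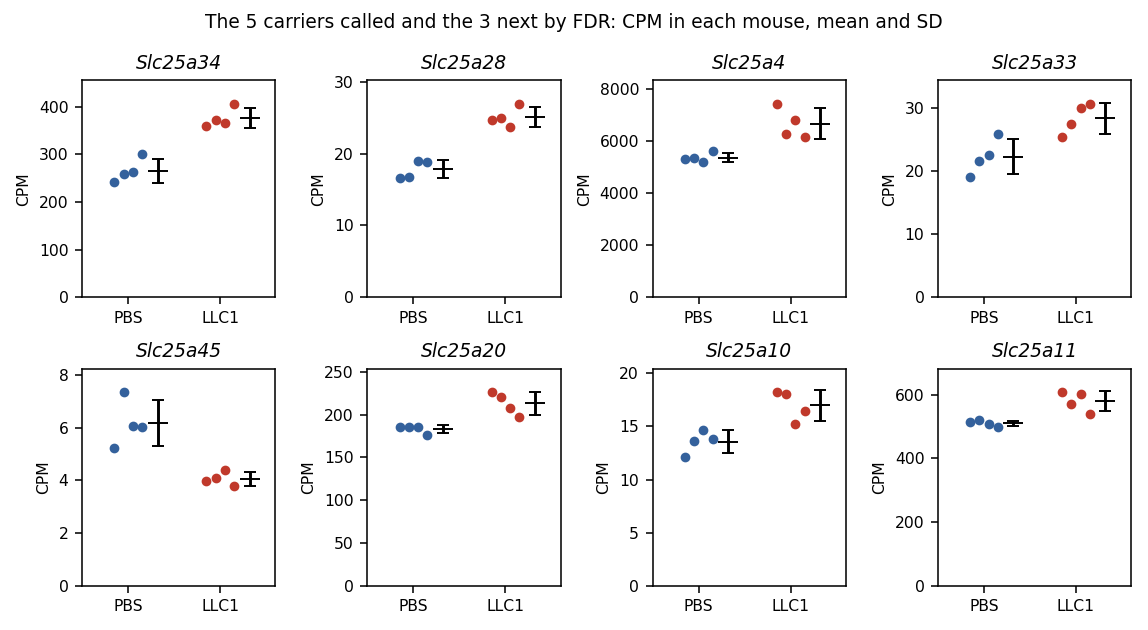
CPM (y axes, from 0) in each PBS mouse (blue) and each LLC1 mouse (red), with mean and SD (black, n = 4), is drawn for the 5 carriers called and the 3 next by FDR. The groups are apart for Slc25a34, Slc25a28, Slc25a4, Slc25a45, Slc25a20, Slc25a10 and Slc25a11, and PBS 2-5 lies within the LLC1 range for Slc25a33.

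Iron enters the matrix through the mitoferrins, for heme and iron-sulfur cluster synthesis. Slc25a28 (chr19:43663822-43674881, minus strand), mitoferrin 2, the form of non-erythroid tissue, was at 24.6, 24.9, 23.7 and 27.0 CPM in LLC1 mice and at 16.6, 16.8, 19.0 and 18.9 CPM in PBS mice. The groups did not overlap (log2 fold change 0.49, SE 0.08, FDR 0.00511), and it was called in all 19 other settings. Its ratio to the cardiomyocyte markers was 1.24 times higher in LLC1 mice. Slc25a37, mitoferrin 1, known from developing red cells, was at 23.6, 27.6, 25.1 and 23.6 CPM in LLC1 mice and at 29.5, 31.8, 28.4 and 27.2 CPM in PBS mice, with a slight overlap (log2 fold change -0.23, SE 0.08, FDR 0.103).

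The ratio of mitoferrin 2 to mitoferrin 1, in counts per base of gene length, was 4.16, 3.59, 3.77 and 4.53 in LLC1 mice and 2.25, 2.10, 2.66 and 2.77 in PBS mice. The table's length for Slc25a28, 1514 bases, sets the size of the ratio but not its order among mice. All LLC1 ratios lay above all PBS ratios (exact permutation p = 0.0286, adjusted 0.114 over the 8 pairs). The erythroid marker sum was 1429 to 5180 CPM in LLC1 mice, highest in LLC1 1-2, and 1556 to 3097 CPM in PBS mice, with a median log2 fold change of 0.38 over the 5 markers tested, and its part in this ratio was not tested. Slc25a37 shares stretches of 381 or 382 bases at 100% identity with transcripts of Gm16867, Gm31748 and Gm37847. These reached at most 15 counts, so a part of the Slc25a37 reads is uncertain. The coding sequences, 1092 and 1014 bases, are 71.6% identical where aligned, with a longest identical run of 15 bases. A stretch of each (bases 639 to 758 of Slc25a28 and bases 558 to 677 of Slc25a37) is given for the same reason as before, with the 24 differing bases of 120 in capitals.
Slc25a28: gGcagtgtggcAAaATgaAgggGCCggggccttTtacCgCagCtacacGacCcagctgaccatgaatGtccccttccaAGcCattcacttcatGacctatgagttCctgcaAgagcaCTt
Slc25a37: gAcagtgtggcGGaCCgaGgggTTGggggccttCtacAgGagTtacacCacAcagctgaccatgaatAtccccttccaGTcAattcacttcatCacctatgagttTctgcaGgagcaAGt
The other 3 carriers of this group were not called: Slc25a38, which supplies glycine for heme (log2 fold change 0.13, FDR 0.302), and Slc25a39 and Slc25a40, which import glutathione. Slc25a39 was at 135, 130.1, 129 and 126 CPM in LLC1 mice and at 108, 129, 127 and 130.2 CPM in PBS mice, with PBS 1-1 below the rest (FDR 0.548), and Slc25a40 had a log2 fold change of -0.09 (FDR 0.714).

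**Figure D4:**
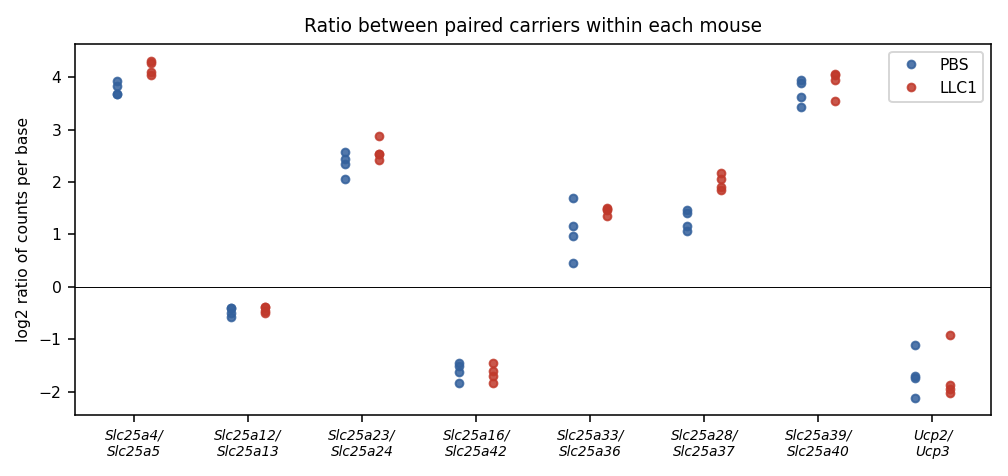
For 8 pairs of carriers, each point is the log2 ratio of counts per base of gene length in one PBS (blue) or LLC1 (red) mouse. The groups are apart for Slc25a4/Slc25a5 and Slc25a28/Slc25a37 and overlap for the other 6 pairs.

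The other 6 pairs overlapped. The aspartate/glutamate carriers Slc25a12 and Slc25a13, isoforms that both serve the malate-aspartate shuttle, had a ratio of 0.767, 0.725, 0.770 and 0.707 in LLC1 mice and 0.754, 0.710, 0.668 and 0.757 in PBS mice. Slc25a12 was at 299, 284, 306 and 279.5 CPM in LLC1 mice and at 279, 280.2, 286 and 274 CPM in PBS mice, and Slc25a13 was at 166, 167, 169 and 168 and 157, 168, 182 and 154 CPM. Neither was called (log2 fold changes 0.06 and 0.02, 95% intervals -0.06 to 0.19 and -0.12 to 0.16). The ratio of the coenzyme A carriers Slc25a16 and Slc25a42 was 0.363, 0.307, 0.330 and 0.280 in LLC1 mice and 0.364, 0.350, 0.322 and 0.281 in PBS mice. That of Slc25a23 to Slc25a24 was 7.32, 5.35, 5.82 and 5.82 in LLC1 mice and 4.16, 5.06, 5.94 and 5.41 in PBS mice. LLC1 1-2 had the highest and PBS 1-1 the lowest of these. That of Slc25a39 to Slc25a40 was 16.4, 16.7, 11.7 and 15.5 in LLC1 mice and 10.7, 12.3, 15.4 and 14.8 in PBS mice. Adjusted p-values of these overlapping pairs were 0.366 or higher by the exact permutation test.

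Pyrimidine nucleotides enter the matrix through Slc25a33 and Slc25a36. Slc25a33 (chr4:149744036-149774277, minus strand) was at 25.3, 27.5, 30.0 and 30.7 CPM in LLC1 mice and at 19.0, 21.6, 22.6 and 25.8 CPM in PBS mice. PBS 2-5 lay above LLC1 1-2, so the groups overlapped, and the FDR was just inside the threshold (log2 fold change 0.35, SE 0.10, FDR 0.04996). The call was kept in only 1 of the 8 fits that leave out a mouse, the one without PBS 2-5, and in the other 7 the FDR was 0.0554 to 0.142. Relative to the cardiomyocyte markers its LLC1 to PBS ratio was 1.13, with overlap. Of the 11 alternatives that used all mice, 6 kept it. Of its exons 14.9% overlap the antisense gene Gm13068, so its count is uncertain if strand was not used. Slc25a36 was at 50.7, 50.4, 53.6 and 55.8 CPM in LLC1 mice and at 70.4, 55.7, 51.6 and 40.6 CPM in PBS mice (FDR 0.859). The PBS mice spread more widely around the LLC1 mice, and the Slc25a33/Slc25a36 ratio was 2.54, 2.77, 2.85 and 2.80 in LLC1 mice and 1.38, 1.97, 2.23 and 3.24 in PBS mice.

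None of the other nucleotide and cofactor carriers was called in this fit. Slc25a42, which imports coenzyme A, was at 101, 117, 113 and 130.0 CPM in LLC1 mice and at 91.2, 94.6, 114 and 108 CPM in PBS mice (log2 fold change 0.18, SE 0.09, FDR 0.246). With the first number of the mouse code as a covariate it was called higher (log2 fold change 0.24, FDR 0.0356). The labels do not say what that number means, and among the LLC1 mice only LLC1 2-2 differed in it. The log2 fold changes of the rest ran from -0.24 for Slc25a32, a folate and flavin carrier, to 0.13 for Slc25a16, with Slc25a51, which imports NAD, at -0.05, the peroxisomal carrier Slc25a17 at -0.01 and Slc25a26, which imports S-adenosylmethionine, at 0.07. Their 95% intervals included 0.

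Slc25a20, which exchanges acylcarnitines for carnitine and so feeds fatty acids to oxidation, was at 227, 221, 207 and 197 CPM in LLC1 mice and at 186, 186, 185 and 176 CPM in PBS mice. The groups were apart, and the FDR was just outside the threshold (log2 fold change 0.22, SE 0.06, FDR 0.05005). Slc25a10, the dicarboxylate carrier, was at 18.3, 18.1, 15.2 and 16.5 CPM in LLC1 mice and at 12.1, 13.6, 14.7 and 13.8 CPM in PBS mice, also apart (log2 fold change 0.32, SE 0.09, FDR 0.0542). Slc25a11, the oxoglutarate/malate carrier of the malate-aspartate shuttle, was at 609, 571, 602 and 538 CPM in LLC1 mice and at 513, 519.8, 508 and 498 CPM in PBS mice, apart as well (log2 fold change 0.19, SE 0.06, FDR 0.0783). These 3 are the uncalled members without overlap, and they were called in 6, 3 and 1 of the 11 alternatives that used all mice. The exons of Slc25a10 and Slc25a11 overlap a gene on the other strand over 6.60% and 8.92% of their length. Slc25a20 shares a stretch of 366 bases at 97% identity or more with transcripts of 18 other genes, so some of its reads are uncertain. Per 1000 cardiomyocyte-marker CPM, all 3 overlapped, with ratios of LLC1 to PBS means of 1.03 for Slc25a20, 1.11 for Slc25a10 and 1.00 for Slc25a11. The citrate carrier Slc25a1 had a log2 fold change of 0.08 with a 95% interval of -0.33 to 0.48.

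Slc25a45 (chr19:5877808-5885766, plus strand), placed by sequence with the carnitine and basic amino acid carriers, was the one carrier that fell. It was at 3.97, 4.08, 4.38 and 3.77 CPM in LLC1 mice and at 5.23, 7.36, 6.06 and 6.02 CPM in PBS mice. The PBS mice were all above the LLC1 mice (log2 fold change -0.61, SE 0.13, FDR 0.018). The call was lost without LLC1 1-3, LLC1 2-2 or PBS 1-3 (FDR 0.0526 to 0.0628) and kept in the 11 alternatives that used all mice. Relative to the cardiomyocyte markers its LLC1 to PBS ratio was 0.579, without overlap. Slc25a29, a basic amino acid carrier, the ornithine carrier Slc25a15 and Slc25a47 were not called, with log2 fold changes of 0.10, -0.19 and 0.04. Slc25a44, which imports branched-chain amino acids, was at 18.2 to 24.0 CPM over the 8 mice (95% interval of the log2 fold change -0.29 to 0.12).

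Ucp2 (chr7:100493337-100502020, plus strand) was not called. It was at 68.8, 73.3, 65.4 and 72.7 CPM in LLC1 mice and at 37.6, 61.5, 65.6 and 104 CPM in PBS mice. The LLC1 mice sat close together inside a wide PBS range, with PBS 1-1 lowest and PBS 2-5 highest (log2 fold change 0.05, SE 0.22, 95% interval -0.42 to 0.52, FDR 0.907). The log2 fold change was -0.14 without PBS 1-1, which turned its sign, and 0.34 without PBS 2-5, and neither was called. Ucp3, the uncoupling protein known from muscle and named only for comparison, was at 58.2, 121, 114 and 132 CPM in LLC1 mice and at 36.4, 91.8, 129 and 153 CPM in PBS mice (FDR 0.952). In it too PBS 1-1 was the lowest and PBS 2-5 the highest of all mice, and the Ucp2/Ucp3 ratio, 0.530, 0.273, 0.258 and 0.247 in LLC1 mice and 0.463, 0.301, 0.229 and 0.306 in PBS mice, overlapped between groups. From lowest to highest the PBS mice stood in the order 1-1, 1-3, 2-1, 2-5 for 6 of the 41 members tested: Ucp2, Slc25a34, Slc25a33, Slc25a23, Slc25a44 and the glutamate carrier Slc25a22. The share of all genes tested that had this order was not computed. Slc25a22, chosen after its values were seen, was at 51.3, 67.8, 70.4 and 68.2 CPM in LLC1 mice and at 43.2, 60.2, 74.0 and 83.6 CPM in PBS mice. Slc25a18, the other glutamate carrier, was at 0.561 to 1.89 CPM. The related carriers Slc25a14, Slc25a27 and Slc25a30 were at 1.29 to 2.17, 6.52 to 10.2 and 5.15 to 7.25 CPM, and none was called (lowest FDR 0.256, for Slc25a27).

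**Figure D5:**
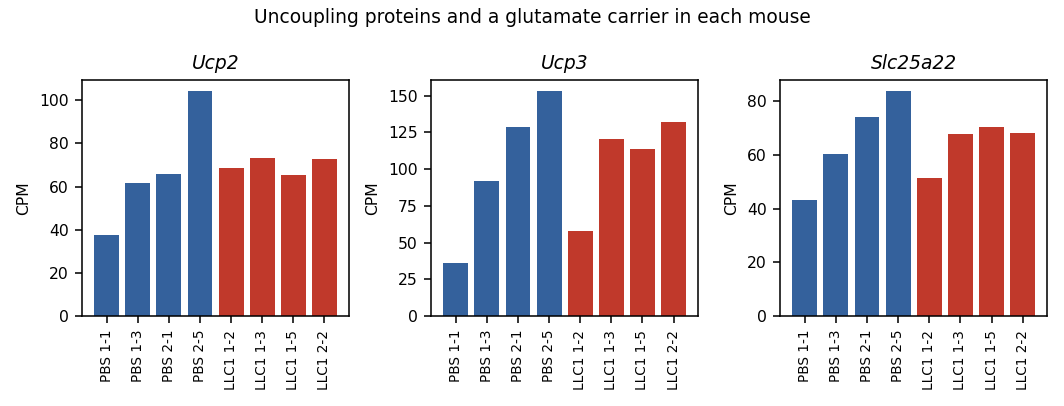
Bars give the CPM (from 0) of Ucp2, Ucp3 and Slc25a22 in each mouse, PBS in blue and LLC1 in red. PBS 1-1 is the lowest and PBS 2-5 the highest mouse in all 3 panels, and the LLC1 mice lie between them.

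The 3 lists of genes that work with the carriers were read in the same fit. Of 14 enzymes of the shuttles and of energy export, 4 rose and 0 fell: Cpt1b, the muscle enzyme that makes acylcarnitines (log2 fold change 0.33, SE 0.06, FDR 0.00649), Crat, carnitine acetyltransferase (log2 fold change 0.27, SE 0.06, FDR 0.0193), Ckm, muscle creatine kinase (log2 fold change 0.29, SE 0.07, FDR 0.0285), and Got1, the cytosolic aspartate aminotransferase of the malate-aspartate shuttle (log2 fold change 0.27, SE 0.07, FDR 0.032). Groups did not overlap for 7 of these 14, against 17.2% of all genes, and the list's median log2 fold change was 0.17. The 6 cardiomyocyte markers, whose sum was 87357 to 93852 CPM in LLC1 and 78434 to 80626 CPM in PBS mice, had a median of 0.16, and their part in the list's difference was not tested. Of 27 other mitochondrial transport genes tested, including the pyruvate carrier, VDAC, calcium uniporter and sideroflexin genes, 1 rose: Abcb8, an inner membrane ABC transporter (log2 fold change 0.29, SE 0.07, FDR 0.026). Of 7 genes of the TIM22 import route, 0 were called by edgeR and 0 had an unadjusted p under 0.05. Groups did not overlap for 2 of the 27 and 0 of the 7. Over the 3 lists it was 9 of 48 (18.75%), beside 17.2% of all genes. Taking the 3 lists as one, 5 of 48 genes tested (10.4%) rose and none fell by edgeR's test, beside 4.12% and 4.61% of all genes. This count was 1 with scaling to total counts and 2 with GC content offsets. It was 1 to 3 without LLC1 1-2, LLC1 1-3, LLC1 1-5, PBS 1-3 or PBS 2-1. Without PBS 1-1, 8 rose and 1 (Sfxn1) fell.

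The promoters of the 5 carriers called are given as RefSeq (GRCm38.p6) places them, from 250 bases before to 50 after the start, since these are the members that changed. Each is written in the direction of transcription, and capitals mark the E-box described after them.
Slc25a34 promoter (chr4:141623785-141624084, minus strand): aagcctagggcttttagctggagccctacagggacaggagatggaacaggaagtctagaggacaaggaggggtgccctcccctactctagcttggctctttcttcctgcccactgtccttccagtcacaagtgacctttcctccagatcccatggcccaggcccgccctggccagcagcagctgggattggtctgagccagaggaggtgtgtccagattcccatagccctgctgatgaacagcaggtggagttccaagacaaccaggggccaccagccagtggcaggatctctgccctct
Slc25a28 promoter (chr19:43674832-43675131, minus strand): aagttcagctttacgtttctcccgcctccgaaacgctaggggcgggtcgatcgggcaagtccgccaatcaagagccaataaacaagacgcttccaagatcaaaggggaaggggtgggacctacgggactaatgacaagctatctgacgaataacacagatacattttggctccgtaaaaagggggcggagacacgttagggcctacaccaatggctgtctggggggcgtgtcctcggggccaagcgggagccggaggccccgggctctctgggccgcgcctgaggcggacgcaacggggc
Slc25a4 promoter (chr8:46211013-46211312, minus strand): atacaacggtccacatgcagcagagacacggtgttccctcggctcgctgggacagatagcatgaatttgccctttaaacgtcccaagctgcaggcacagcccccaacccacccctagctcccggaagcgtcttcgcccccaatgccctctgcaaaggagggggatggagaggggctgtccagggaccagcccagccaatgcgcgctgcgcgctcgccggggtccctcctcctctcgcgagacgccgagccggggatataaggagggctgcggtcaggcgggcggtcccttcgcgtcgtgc
Slc25a33 promoter (chr4:149774218-149774517, minus strand): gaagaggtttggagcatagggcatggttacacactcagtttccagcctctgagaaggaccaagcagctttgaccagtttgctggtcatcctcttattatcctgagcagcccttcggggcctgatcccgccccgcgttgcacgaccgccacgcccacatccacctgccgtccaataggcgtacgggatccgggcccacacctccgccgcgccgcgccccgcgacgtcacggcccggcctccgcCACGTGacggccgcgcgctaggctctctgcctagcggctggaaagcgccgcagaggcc
Slc25a45 promoter (chr19:5877572-5877871, plus strand): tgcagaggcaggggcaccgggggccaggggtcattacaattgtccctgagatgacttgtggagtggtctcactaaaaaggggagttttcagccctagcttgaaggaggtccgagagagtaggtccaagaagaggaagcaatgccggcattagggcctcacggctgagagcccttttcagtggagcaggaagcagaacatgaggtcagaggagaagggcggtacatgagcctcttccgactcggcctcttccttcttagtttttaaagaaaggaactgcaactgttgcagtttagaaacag
Their GC content was 59%, 60%, 65.7%, 66% and 52.7% in this order. A search on both strands for 4 motifs that are known from promoters of mitochondrial genes, chosen after the values were seen, covered 47 windows of the 37 members that matched by symbol and 32817 windows in all. The E-box CACGTG was found in 8 of the 47 windows (17%, against 7.15% of all windows) and, of the 5 shown, in that of Slc25a33, just ahead of the start. The NRF1 element was in 2 windows (4.26% against 4.59%), the GABPA element CCGGAAGT in 1 (2.13% against 3.89%) and the ERR element TCAAGGTCA in 0 (against 0.424%). A match is a description of these letters, and the absence of one says only that they are not in the window.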

How the data were processed

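Ventricular RNA of 8 mice was prepared with a TruSeq kit and sequenced in paired ends of 150 bases. Per the submitters' processing notes, CASAVA, STAR and featureCounts were used with build mm10, and the versions, annotation and strand setting are not given in the sources used here. The deposited values are raw counts per gene, as the authors made them, in one table with gene symbol, biotype and length. Groups came from the labels' treatment field. The labels give 4 separate samples per group, taken as 1 mouse each, and p-values measure the spread between them.

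Genes kept by filterByExpr (16111 of 43346) were fitted in edgeR 4.0.16 (R 4.3.3) with TMM factors, quasi-likelihood F-tests and Benjamini-Hochberg adjustment over all genes tested, at an FDR of 0.05. SE is the log2 fold change divided by the root of F. The common biological coefficient of variation was 0.109. CPM are TMM-normalized, and divided by the table's gene length where given per kilobase. That length differs from the GENCODE M21 exon bases for some members, such as Slc25a40 (2777 against 8386), Slc25a13 (3122 against 3798) and Slc25a28 (1514 against 3749). It sets the size of ratios and of levels per kilobase, but not the order of mice. Pair ratios used counts plus 0.5 and an exact two-sided permutation test over 70 arrangements. Alternatives used DESeq2 1.42.0, limma 3.58.1, other scalings, filters, offsets (loess span 0.3) and each mouse left out. Exon overlaps and coding sequences came from GENCODE M21, similar transcripts from blastn 2.17.0 (97% over 150 bases), promoters from RefSeq. The fit was tested on simulated data. Older symbols were used for 4 list genes (such as Emr1 for Adgre1).

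Values per mouse were given for members called, for the 10 highest per kilobase, for Ucp2 and for the ratios of pairs, and members next to the threshold, Slc25a25 and Slc25a22 were added after their values were seen. One member is counted but not reported here by name. The members and lists were chosen with earlier results of these data known.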

Additional observations from a re-analysis of the deposited data

Results flagged for a closer look

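In groups of 4 mice, 1 mouse stood far from the other 3 in 8 of the 82 combinations of carrier and group examined. For independent, normally distributed values the limit used is passed in about 1 in 20. The combinations share the same mice, and the share over all genes was not computed. None of the 8 outlying values was left out of the fits.

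In PBS 1-1, Slc25a39, a glutathione carrier, was at 108.4 CPM where the other PBS mice had 126.9 to 130.2, and Slc25a35 was at 46.8 CPM where they had 37.7 to 38.1. In PBS 2-5, the acylcarnitine carrier Slc25a20 was at 176.5 CPM against 185.0 to 185.7 in the others. In LLC1 1-2, the glutamate carrier Slc25a22 was at 51.3 CPM against 67.8 to 70.4, the peroxisomal carrier Slc25a17 at 17.4 against 14.9 to 15.3, and the branched-chain amino acid carrier Slc25a44 at 18.5 where the others had up to 21.3. In LLC1 2-2, Slc25a30 was at 7.25 CPM against 5.63 to 5.76. In LLC1 1-5, Slc25a40 was at 11.1 CPM against 7.84 to 8.27. Of these 7 carriers outside Slc25a20, none was called in any setting.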

How the results depend on the processing

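No paired analysis was possible because the groups share only 1 replicate code, which names different mice. With the first number of the mouse code, whose meaning the labels do not give, as a covariate, 6 carriers were called, the 5 reported and Slc25a42. The 5 carriers called became 8 with DESeq2 (Slc25a20, Slc25a10 and Slc25a11 added) and 3 with scaling to total counts (Slc25a4 and Slc25a33 lost), and 4 to 6 in the other 9 alternatives. Carriers called higher were 7 and 2 in the first 2 of these. Scaling to total counts moved the share of higher calls over all genes from 47.2% to 22.1%. The working lists' 5 calls became 1 with it and 2 with GC content offsets. With each mouse left out, carriers called ranged from 2 (without PBS 1-3) to 5, those higher from 2 to 4, those lower from 0 to 2, and the lists' calls from 1 to 9 (without PBS 1-1). The pairs without overlap were 2 to 3. Slc25a34 and Slc25a28 kept their call in all 19 settings and 31 members tested were called in none. Ucp2 changed sign with total counts (-0.0152), without PBS 1-1 (-0.14; the highest value was 0.339, without PBS 2-5) and relative to the cardiomyocyte markers (-0.12), a scale added after seeing the data on which Slc25a33 was also weaker (0.17, overlapping). Fits without a mouse had fewer samples, and for the other changes the cause was not tested. At this depth, 7 members were too low to test, and counts of genes that overlap another on the opposite strand could not be separated here.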
